A study of Mus musculus with 50 samples.

Results

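The genes described here make cholesterol and fatty acids or sense, move and export sterols, and all belong to the set that cells adjust when their sterol supply changes. The list held 36 genes, of 18193 genes named on the arrays. Each gene was represented by its probe set with the highest mean, and 34 of the 36 genes passed the filter on low values. Acat2 and Nr1h2 had no probe set under their name and were not analysed here. The 34 genes comprised 6 of the mevalonate arm, 11 of the sterol arm, 6 of sterol sensing, 7 of the fatty acid arm and 4 of trafficking and efflux.

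The arrays measured dorsal root ganglia, which hold the cell bodies of sensory neurons together with satellite glia and Schwann cells, from naive wildtype mice 2 months old. The groups were 25 inbred strains: 129S1/Sv1mJ, A/J, AKR/J, BALB/CByJ, BTBT T+tf/J, BUB/BnJ, C3H/HeJ, c57BL/6J, C57BR/cdJ, C58/J, CBA/J, DBA/2J, FVB/NJ, KK/HIJ, MRL/MpJ, NOD/LtJ, NON/LtJ, NZO/HILtJ, NZW/LacJ, P/J, PL/J, RIIIS/J, SJL/J, SM/J and SWR/J. Every strain gave 1 array of RNA pooled from 3 males and 1 of RNA pooled from 3 females. A strain thus has no replicate other than its 2 pools, so a p-value for strain measures the spread between the male and the female pool and takes in any sex effect that differs by strain.

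All values are log2(intensity + 1), and a value of 1 log2 unit is a doubling of the signal. The number of arrays limits the precision, with 24 residual degrees of freedom for 25 strains. Neuron markers were high (Nefl 14.01, Avil 12.02), as were the myelin gene Mbp (13.86) and the satellite glia gene Fabp7 (13.21). Arrays had 18703 to 19327 probe sets above a value of 4. For the control gene Gapdh, the signal of the 3' probe set minus that of the 5' one, which rises when RNA is degraded, had a median of -0.59 over arrays and was highest in the male BTBT T+tf/J array (0.60) and the female P/J array (0.34). The male PL/J array carried Xist, the RNA of the silenced X chromosome, at 8.97 and the female SM/J array carried the Y gene Eif2s3y at 6.82. Xist was also raised in the male BTBT T+tf/J array at 7.78 and the male SWR/J array at 6.73, while female arrays lay between 9.43 and 11.09. It was raised less in the male NON/LtJ (5.42), NZW/LacJ (5.27), NOD/LtJ (5.19) and c57BL/6J (4.98) arrays, against 2.38 in the male AKR/J array. The lowest intensity ran from 1.629 to 1.655 on male arrays and from 1.726 to 1.744 on female arrays, so the sexes look to have been normalized as separate sets.

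Cholesterol is built from acetyl-CoA: the mevalonate arm makes farnesyl pyrophosphate, and the sterol arm joins this into squalene, closes the rings and trims the product to cholesterol. The transcription factor SREBP2, encoded by Srebf2, is held in the endoplasmic reticulum by SCAP and the INSIG proteins while sterols are plentiful; when they fall, it is cut free and switches on nearly every enzyme of both arms, as SREBP1 (Srebf1) does for fatty acid synthesis. Export is run mainly by another sterol sensor, the nuclear receptor LXR, so its targets Abca1 and Abcg1 move the other way in the textbook response. In nerve, cholesterol is a main lipid of myelin, and Schwann cells make most of their own.

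SREBP2 binds short sequences in front of its target genes, together with NF-Y and Sp1. The bases before the start of 3 synthesis genes are shown because these genes mark the ends of the co-variation described further on: Nsdhl followed the other synthesis genes most closely over strains, and Sc5d least, by their leading probe sets. Hmgcs1 is the only gene, of those with a promoter in the table used, in which the sterol regulatory element TCACNCCAC was found. Nsdhl and Sc5d were chosen after their values were seen. Capitals mark, on either strand, TCACNCCAC, the NF-Y motif CCAAT, the Sp1 motif GGGCGG and the E box CACGTG. The sequences are RefSeq's, build GRCm38.p6, each 250 bases that end just before the start of the gene, on chr13:119690101-119690350 (plus strand) for Hmgcs1, chrX:72918271-72918520 (plus strand) for Nsdhl and chr9:42264301-42264550 (minus strand) for Sc5d.
Hmgcs1: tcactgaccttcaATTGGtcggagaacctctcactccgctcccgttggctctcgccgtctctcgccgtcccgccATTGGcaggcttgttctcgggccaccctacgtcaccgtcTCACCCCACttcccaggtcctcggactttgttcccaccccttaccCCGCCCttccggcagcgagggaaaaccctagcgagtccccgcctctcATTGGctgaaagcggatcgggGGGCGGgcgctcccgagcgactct
Nsdhl: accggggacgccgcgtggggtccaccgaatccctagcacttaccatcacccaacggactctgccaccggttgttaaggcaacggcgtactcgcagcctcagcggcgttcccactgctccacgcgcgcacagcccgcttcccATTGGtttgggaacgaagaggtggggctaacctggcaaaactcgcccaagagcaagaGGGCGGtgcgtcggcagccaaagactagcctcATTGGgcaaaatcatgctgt
Sc5d: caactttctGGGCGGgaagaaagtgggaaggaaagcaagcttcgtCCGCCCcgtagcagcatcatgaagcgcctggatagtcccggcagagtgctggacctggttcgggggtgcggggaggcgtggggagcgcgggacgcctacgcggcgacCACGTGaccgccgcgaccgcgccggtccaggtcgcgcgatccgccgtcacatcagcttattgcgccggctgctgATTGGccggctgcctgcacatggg

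A window from 250 bases before to 50 after the start could be read for 27 of the 36 genes, with 37 promoters in all. TCACNCCAC was in 1 of the 37 promoters and in 1.24% of the 32851 promoters of all genes. CCAAT was in 21 of the 37 (56.8%) against 37.4% of all promoters, GGGCGG in 26 (70.3%) against 35.7%, and CACGTG in 7 (18.9%) against 7.15%. Of the 15 synthesis genes with a promoter, 14 held CCAAT and 14 held GGGCGG. No 2 of the matches marked above overlap, a match is a run of letters only, and Sc5d held CCAAT and GGGCGG as Nsdhl did.

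The signals of many of these genes depended on strain. The limma F test called 18 of the 34 genes (52.9%) at an adjusted p under 0.05, and the same test called 26.1% of all 11204 genes. By role, 3 of 6 genes of the mevalonate arm, 7 of 11 of the sterol arm, 3 of 6 of sterol sensing, 4 of 7 of the fatty acid arm and 1 of 4 of trafficking and efflux were called. The median range of strain means was 0.93 for the 34 genes and 0.82 for all genes. The male and female values of a gene correlated over strains with a median r of 0.48, against 0.26 for all genes. Among genes at least as bright as the dimmest of the 34, 27.9% were called and the median r was 0.29. All 34 genes were above 4 on every array, so the filter removed none of those with a probe set. In a whole ganglion, fewer cells of a type and less RNA per cell cannot be told apart.

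**Figure D1:**
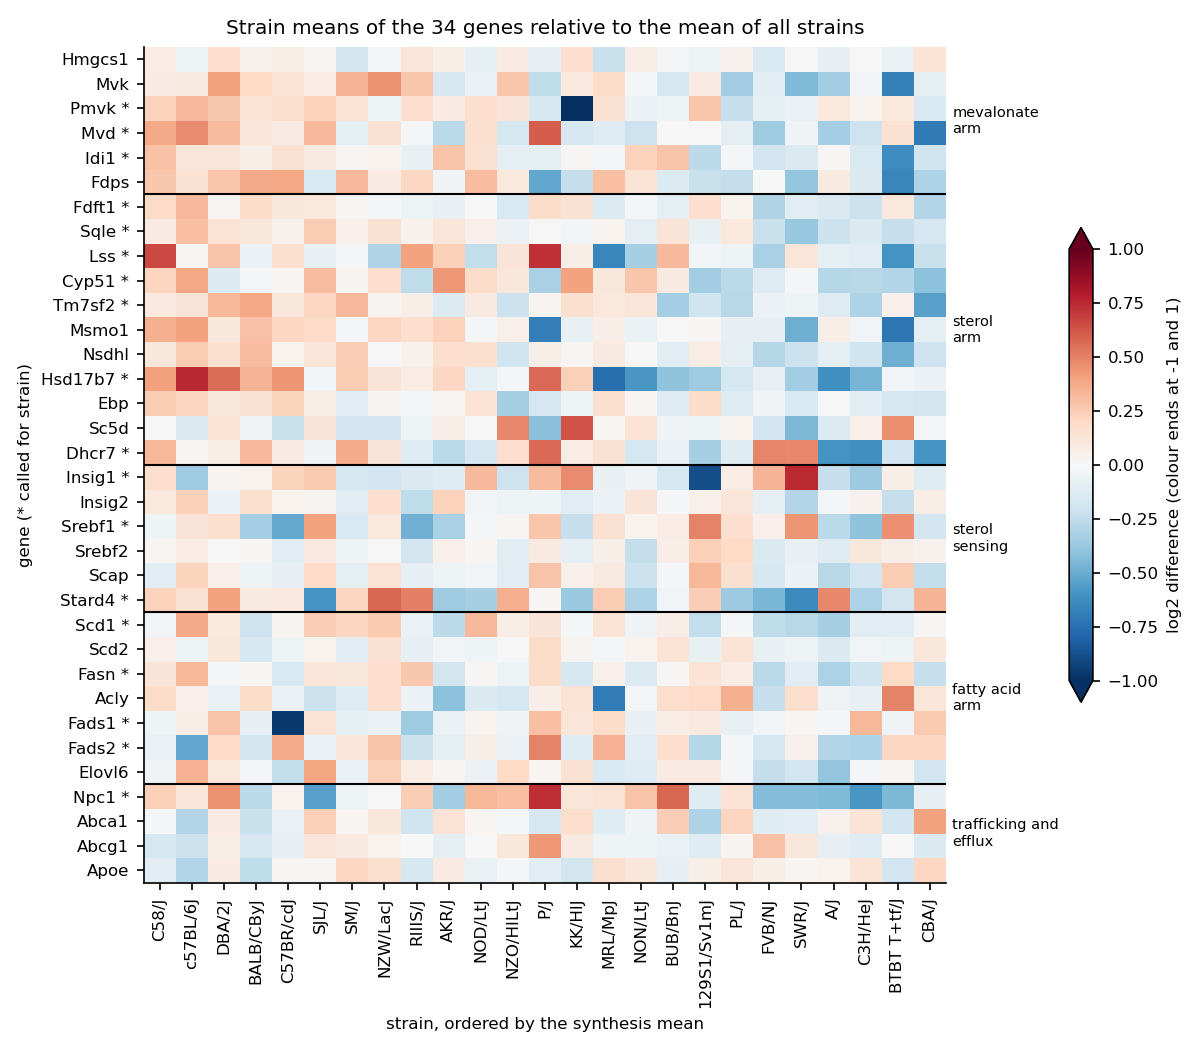
Strain means of the 34 genes (rows, grouped by role) in 25 strains (columns, ordered from the highest to the lowest mean of the 17 synthesis genes), as log2 differences from the mean of all strains; an asterisk marks the 18 genes called for strain. The upper blocks turn from red at the left to blue at the right, which the ordering itself produces in part, while the lower blocks show no such slope; the darkest single cells are Pmvk in KK/HIJ, Fads1 in C57BR/cdJ and Insig1 in 129S1/Sv1mJ.

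In the mevalonate arm the widest strain range belonged to Pmvk, which encodes phosphomevalonate kinase, and it came from 1 strain. Pmvk lay at 6.66 in the male and 6.49 in the female pool of KK/HIJ, while the median strain mean was 8.56. The lowest array of another strain, the female P/J pool, lay at 7.84, so the KK/HIJ pools did not overlap with any other. The KK/HIJ mean fell by 1.95 below the mean of the other 24 strains (SE 0.13, limma, adjusted p = 2.5e-11 over all genes and strains). The strain F test gave a range of 2.20 and an adjusted p of 9.36e-07, and the male to female r of 0.83 dropped to 0.08 without the 2 strains farthest from the median, KK/HIJ among them. Pmvk has no other tested probe set, and whether a KK/HIJ sequence variant lies under its probes was not tested.

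Mvd, the decarboxylase that makes isopentenyl pyrophosphate, was lowest in CBA/J at 5.85 in males and 5.90 in females and highest in P/J at 7.19 and 7.17. The pools of a strain lay close together at both ends, against a range of 1.31 (limma F test, adjusted p = 0.0026), and a second probe set followed (r = 0.72). Idi1, the isomerase of the next step, was highest in C58/J at 11.15 and 11.14 and lowest in BTBT T+tf/J at 9.89 and 10.55 (range 0.92, limma F test, adjusted p = 0.00605). The lower BTBT T+tf/J value is that of the array with the highest Gapdh 3' minus 5' signal. By the limma F test the second Idi1 probe set missed the threshold (adjusted p = 0.141).

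The other 3 genes of the arm were not called. Hmgcs1, which makes HMG-CoA and carries the sterol regulatory element shown above, had by its leading probe set a lowest strain mean of 12.92 in MRL/MpJ, a median of 13.15 and a highest of 13.32 in DBA/2J (limma F test, adjusted p = 0.561). Its other 4 tested probe sets ranged by 0.44 to 1.19, and none was called (limma F test, adjusted p from 0.092 to 0.464). Mvk, mevalonate kinase, and Fdps, farnesyl pyrophosphate synthase, ranged by 1.13 and 1.03, and in both the 2 pools of P/J supplied the highest and the lowest array of all 50. The adjusted p of the limma F test was 0.569 for Mvk and 0.319 for Fdps with all arrays. Without the male P/J array it was 0.0266 and 2.1e-05, and Fdps was called without the female P/J array too (0.0011).

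In the sterol arm, Hsd17b7, a ketosteroid reductase of the demethylation steps, had the widest range at 1.51 (limma F test, adjusted p = 0.000114). It was highest in c57BL/6J at 8.89 in males and 8.47 in females, followed by P/J at 8.74 and 8.24 and DBA/2J at 8.58 and 8.39. It was lowest in MRL/MpJ at 7.28 and 7.05, then A/J at 7.07 and 7.55 and NON/LtJ at 7.28 and 7.40. The 6 pools at the top lay above the 6 at the bottom without overlap, which picking the strains by these same values produces in part. A second probe set of Hsd17b7 gave nearly the same strain order (r = 0.81) and was called as well (limma F test, adjusted p = 0.0155).

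Lss, lanosterol synthase, which closes the rings, was highest in P/J at 8.26 and 8.05 and in C58/J at 8.13 and 8.03. Its lowest mean, in MRL/MpJ, came from pools at 7.36 and 6.18. The range was 1.38 (limma F test, adjusted p = 0.0204), and the call was lost without P/J (0.0579) and when the male BTBT T+tf/J and female P/J arrays were dropped together (0.0673). Dhcr7, the reductase of the last step, was highest in P/J at 8.64 and 8.35 and low in C3H/HeJ at 7.49 and 7.13, in A/J at 7.42 and 7.24 and in CBA/J at 7.46 and 7.20. Its range was 1.18 (limma F test, adjusted p = 0.0232), and the pools of NZO/HILtJ disagreed at 8.94 and 7.25. The Dhcr7 call was lost without the 4 strains with the highest liver markers, DBA/2J, C58/J, FVB/NJ and C3H/HeJ (0.115).

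Cyp51, lanosterol demethylase, had a narrower range of 0.84 (limma F test, adjusted p = 0.000274), with a male to female r of 0.72. It was highest in AKR/J (9.75 and 9.61) and lowest in CBA/J (8.67 and 9.00). Its second probe set was called too (limma F test, adjusted p = 2.02e-07), with a range of 2.49 and a strain order that matched only in part (r = 0.40). Tm7sf2, a sterol reductase, ranged by 0.93 from BALB/CByJ to CBA/J (limma F test, adjusted p = 0.0283). Sqle, squalene epoxidase, ranged by 0.68 from c57BL/6J to SWR/J (0.0234), and Fdft1, squalene synthase, by 0.62 from c57BL/6J to FVB/NJ (0.0312). These 3 calls depended on single arrays. Sqle was lost without the female SWR/J array (0.056), and Tm7sf2 without the male BUB/BnJ or CBA/J or the female BALB/CByJ or CBA/J array (up to 0.0742). Fdft1 was lost without any of 7 arrays, those of c57BL/6J and FVB/NJ, the male BALB/CByJ and the female 129S1/Sv1mJ and C58/J (up to 0.0635). Array median centring also lost Sqle (0.0519), and quantile normalization lost Tm7sf2 (0.0622). Fdft1 was lost without the 4 strains with the highest liver markers (0.132), and its second probe set was not called (0.183).

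Msmo1, the methyl sterol oxidase, Nsdhl, a sterol dehydrogenase, Ebp, a sterol isomerase, and Sc5d, a sterol desaturase, were not called, with ranges of 1.12, 0.80, 0.58 and 1.07. Msmo1 and Nsdhl were lowest in BTBT T+tf/J, through a male pool at 9.30 and 8.61 more than a female pool at 10.37 and 9.50. Without the male P/J array the limma F test called Msmo1 (adjusted p = 0.00432), Nsdhl (0.0204) and Sc5d (0.00796). Leaving out the female P/J array also gave calls for Nsdhl (0.0204) and Sc5d (0.04), the female BTBT T+tf/J array for Msmo1 (0.0142) and Nsdhl (0.000915), the male BTBT T+tf/J array for Nsdhl (0.0348) and the male SWR/J array for Sc5d (0.0345). The probe sets of Sc5d disagreed: a second one had a range of 2.26 (limma F test, adjusted p = 4.09e-07) and no relation to the leading one over strains (r = -0.10).

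Among the genes that sense sterol, Insig1, which retains SCAP in the endoplasmic reticulum and is itself an SREBP target, had the widest range at 1.63 (limma F test, adjusted p = 0.0184). SWR/J lay highest at 9.31 in males and 9.47 in females. Then came KK/HIJ at 9.05 and 9.19, against a median strain mean of 8.61. The lowest mean, in 129S1/Sv1mJ, rested mostly on the female pool at 7.24, with the male pool at 8.28. SWR/J, the strain with the highest Insig1, had the lowest Sqle and the lowest Stard4. The female SWR/J array supplied the lowest Sqle value of all arrays (9.58) and ranked 4 for the Gapdh 3' minus 5' signal (-0.21), and the male one carried Xist at 6.73.

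Stard4, a carrier that moves cholesterol between membranes, split the strains more evenly. It was lowest in SWR/J at 7.70 and 7.66 and in SJL/J at 7.79 and 7.66, and highest in NZW/LacJ at 8.71 and 9.07 and in RIIIS/J at 8.73 and 8.92. The range was 1.21 (limma F test, adjusted p = 9.7e-05), the male to female r 0.76, and a second probe set had a like order (r = 0.78). Insig1 and Stard4 ran in opposite directions over strain means (r = -0.56, n = 25), with -0.66 in male and -0.26 in female arrays.

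Of the transcription factors, Srebf1 ranged by 1.004 from 129S1/Sv1mJ at 8.06 and 7.84 to C57BR/cdJ at 7.30 and 6.59 (limma F test, adjusted p = 0.0205). Srebf2 ranged by 0.48 and was not called (adjusted p = 0.334), nor were Scap, the sterol sensor, with 0.61 (0.0993) or Insig2 with 0.53 (0.116). Scap passed the threshold without the male P/J (0.0474) or the female BTBT T+tf/J array (0.0498). The second probe set of Srebf2 did not follow the first (r = -0.32): it ranged by 1.73 and was called (limma F test, adjusted p = 0.0295).

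**Figure D2:**
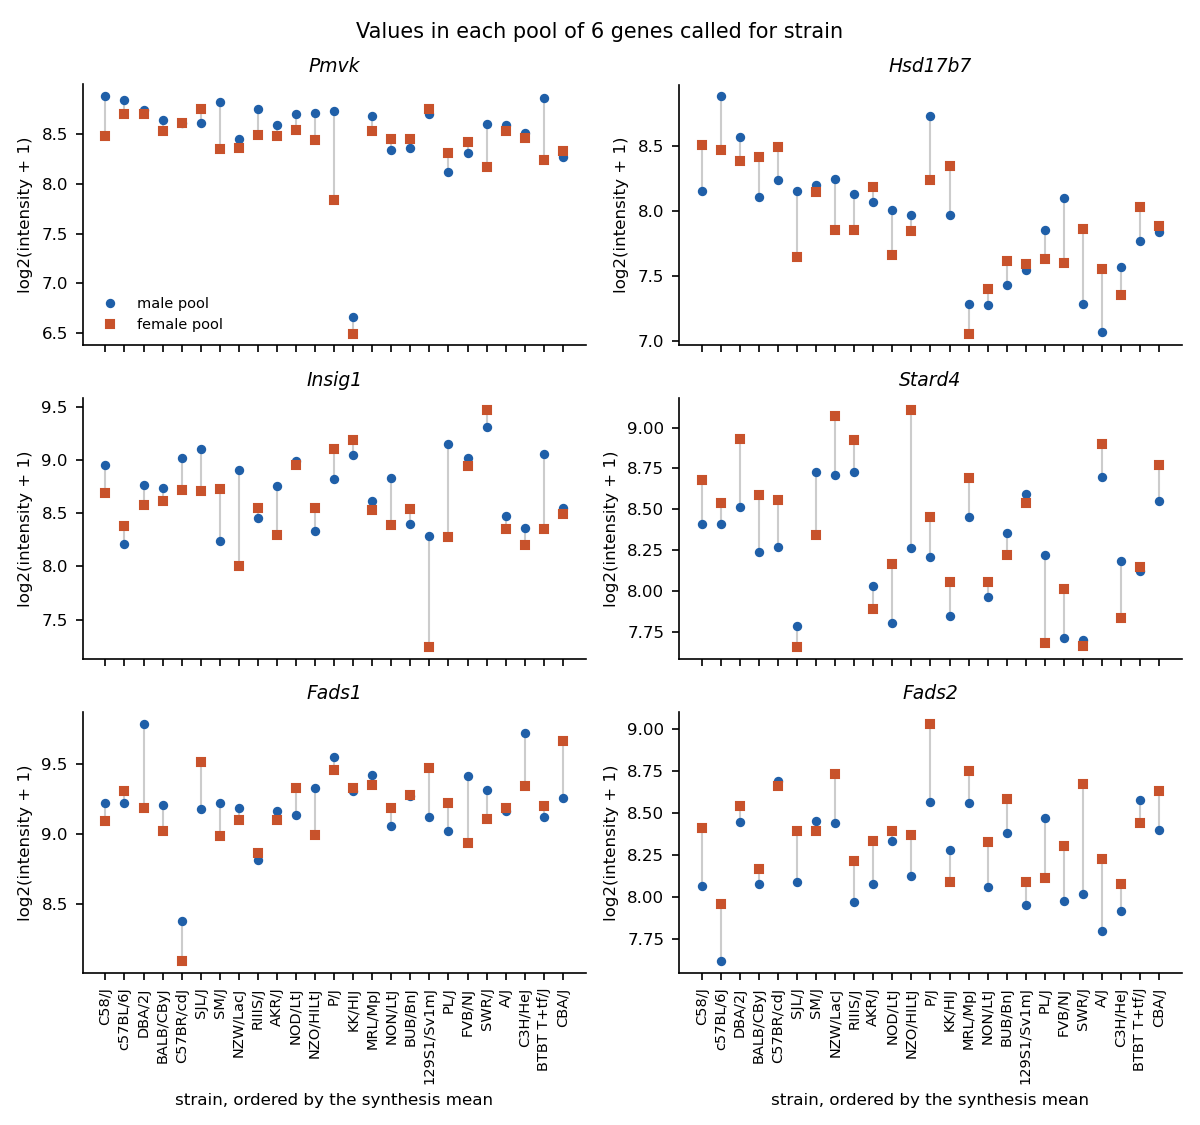
Values of 6 genes called for strain, in log2(intensity + 1), for the male (circle) and the female pool (square) of each of 25 strains, in the order of the synthesis mean; a grey line joins the pools of a strain. Pmvk lay below 6.7 in both pools of KK/HIJ alone and Fads1 lay below 8.4 in both pools of C57BR/cdJ alone, whereas Hsd17b7 and Stard4 differed in steps across many strains.

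In the fatty acid arm, Fads1, the delta-5 desaturase of polyunsaturated fatty acids, ranged by 1.30 from C3H/HeJ at 9.72 in males and 9.35 in females to C57BR/cdJ at 8.38 and 8.10 (limma F test, adjusted p = 0.00409). The C57BR/cdJ mean was 8.24 against 9.24 in the other 24 strains, so it fell by 1.002 (SE 0.13, limma, adjusted p = 9.56e-06). This difference sits at the minimum of 1 log2 unit that was required. Without the female C57BR/cdJ array the strain F test gave an adjusted p of 0.0721. Fads1 has 1 tested probe set, and a variant under it was not tested.

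Fads2, the delta-6 desaturase, did not share that pattern: it was highest in P/J at 8.57 and 9.03 and lowest in c57BL/6J at 7.62 and 7.96 (range 1.01, limma F test, adjusted p = 0.0012). Its second probe set was not called (0.156). Scd1, the stearoyl-CoA desaturase, ranged by 0.71 from c57BL/6J at 12.66 and 12.56 to A/J at 11.83 and 11.98. Its adjusted p of 0.0468 (limma F test) passed 0.05 when any of 41 of the 50 arrays was left out, up to 0.0873, and its second probe set followed poorly (r = 0.19). Fasn, fatty acid synthase, had close pools and a range of 0.65, from c57BL/6J at 9.63 and 9.58 to A/J at 9.04 and 8.86 (limma F test, adjusted p = 0.00241).

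Not called were Scd2, the desaturase isoform typical of the nervous system, with a range of 0.35, Acly, which supplies cytosolic acetyl-CoA, with 1.19, and Elovl6, a fatty acid elongase, with 0.79. The first 2 depended on the probe set. The second probe set of Acly was called (limma F test, adjusted p = 0.0137), and the dimmest one of Scd2 ranged by 3.74 and was called (0.0109). By its leading probe set Scd2 was also called with a pseudocount of 16, with no filter and with trend in the moderation (0.0136 to 0.0436). Elovl6 was close to the threshold (limma F test, adjusted p = 0.0587) and passed it without any of 6 arrays, both of SM/J, both of FVB/NJ, the male P/J and the female BTBT T+tf/J array (0.0181 to 0.0496). In trafficking and efflux, Npc1, which lets cholesterol out of lysosomes, was called with a range of 1.32 (limma F test, adjusted p = 0.012). It was highest in P/J at 7.55 and 7.58, and lowest in C3H/HeJ, where the pools stood apart at 6.91 and 5.59. Abca1 and Abcg1, the efflux transporters, and Apoe, the carrier lipoprotein, ranged by 0.71, 0.65 and 0.51 and were not called. The limma F test called Abca1 without the female BTBT T+tf/J array (adjusted p = 0.0182) and Apoe without the male P/J array (0.0335).

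Calls for single strains were few when a difference of at least 1 log2 unit was required. Pmvk in KK/HIJ and Fads1 in C57BR/cdJ were the 2 calls among 850 pairs of gene and strain, both lower. Over all genes 0.386% of pairs were called higher and 0.468% lower. The count was 5 without the male P/J array. With no minimum difference, limma called 16 pairs higher (1.88%, against 1.57% over all genes) and 19 lower (2.24%, against 1.64%). Hsd17b7 accounted for 6 of these and Cyp51 and Stard4 for 4 each. P/J held 6 of the higher calls (Mvd, Lss, Hsd17b7, Fads2, Npc1 and Abcg1) and 1 of the lower (Msmo1), and c57BL/6J 3 higher (Cyp51, Hsd17b7 and Fasn) and 1 lower (Fads2). CBA/J held 3 lower (Mvd, Cyp51 and Tm7sf2), as did BTBT T+tf/J (Idi1, Msmo1 and Nsdhl).

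To order the strains, the 17 genes of the mevalonate and sterol arms were averaged after each was centred within its sex, which gives a synthesis mean in log2 units around 0. C58/J was highest at 0.24 in both pools, followed by c57BL/6J (0.26 in males and 0.18 in females), DBA/2J (0.15 and 0.25), BALB/CByJ (0.14 and 0.20) and C57BR/cdJ (0.10 and 0.16). CBA/J was lowest (-0.33 and -0.16), preceded by BTBT T+tf/J (-0.33 and -0.12), C3H/HeJ (-0.16 and -0.19), A/J (-0.22 and -0.11) and SWR/J (-0.15 and -0.17). The pools of the top 5 strains all lay above those of the bottom 5, which the ordering by the mean of these same pools produces in part.

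The whole range was 0.48. The pooled SD between the pools of a strain was 0.095, or 0.058 without P/J. The largest of the 24 steps between neighbours in the order was 0.055, so no step exceeded that spread with or without P/J. Both pools lay above 0 in 12 strains and below 0 in 11. In KK/HIJ and P/J they lay on opposite sides of 0. C58/J, c57BL/6J and C57BR/cdJ descend from related stock, as do CBA/J and C3H/HeJ, so the strains are not independent points.

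**Figure D3:**
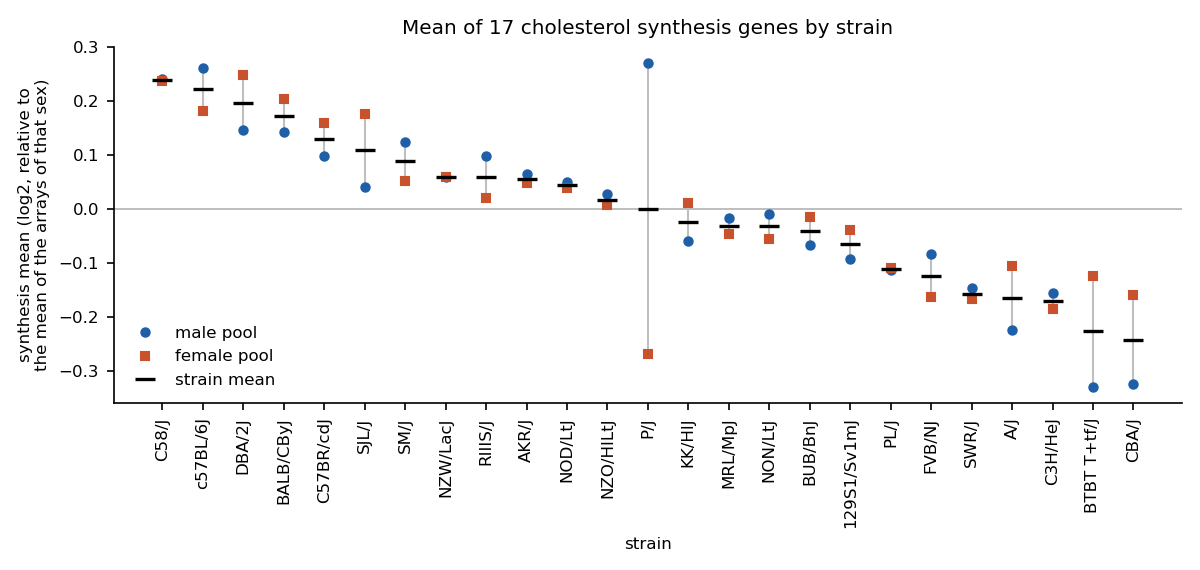
Mean of the 17 cholesterol synthesis genes in log2 units relative to the arrays of the same sex, for the male pool (circle), the female pool (square) and their mean (bar) in each of 25 strains. The means descend in small steps from 0.24 in C58/J to -0.24 in CBA/J, and P/J has by far the widest gap between its pools, from 0.27 to -0.27.

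The strains at the ends of the order were high or low in most of the enzymes, which are the genes the order was made from. In C58/J, 16 of the 17 synthesis genes lay above the mean of all strains, 15 of them in both pools. DBA/2J and C57BR/cdJ had 16 above as well, c57BL/6J 15 and BALB/CByJ 14. In CBA/J 16 of 17 lay below the mean, 13 in both pools. C3H/HeJ, SWR/J and FVB/NJ each had 15 below.

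Male and female synthesis means correlated over strains at r = 0.61 (rho = 0.69, n = 25), and at r = 0.52 without CBA/J and C58/J, the farthest from the median. The value depended most on P/J, whose male pool ranked 1 of 25 and whose female pool ranked 25. Without P/J, left out after seeing the data, r was 0.86 (rho = 0.91, n = 24). Without SM/J and PL/J it was 0.59, and it was 0.55 without SM/J, PL/J, BTBT T+tf/J and SWR/J. These 4 strains had the arrays with the strongest transcripts of the other sex, and strains with a weaker Xist signal in males, c57BL/6J among them, were kept. Leaving out the 4 was chosen after seeing the data. By role, r between male and female means was 0.45 for the mevalonate arm, 0.69 for the sterol arm, 0.33 for sterol sensing, 0.79 for the fatty acid arm and 0.48 for trafficking and efflux.

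The disagreement in P/J was uneven over the enzymes. Fdps lay at 11.24 in the male and 8.89 in the female pool, Mvk at 7.36 and 5.07, Msmo1 at 10.52 and 9.21 and Sc5d at 8.36 and 7.36. Mvd (7.19 and 7.17) and Lss (8.26 and 8.05) hardly differed, and Acly ran the other way (11.14 and 12.09). The female P/J array had the second highest Gapdh 3' minus 5' signal. Over the female arrays the synthesis mean had an r of -0.30 with that signal, and -0.01 without P/J; over the male arrays it was -0.50, and -0.31 without BTBT T+tf/J. The part of RNA quality in the strain order was otherwise not tested. Without the male P/J array 26 of the 34 genes were called for strain, against 36.5% of all genes.

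**Figure D4:**
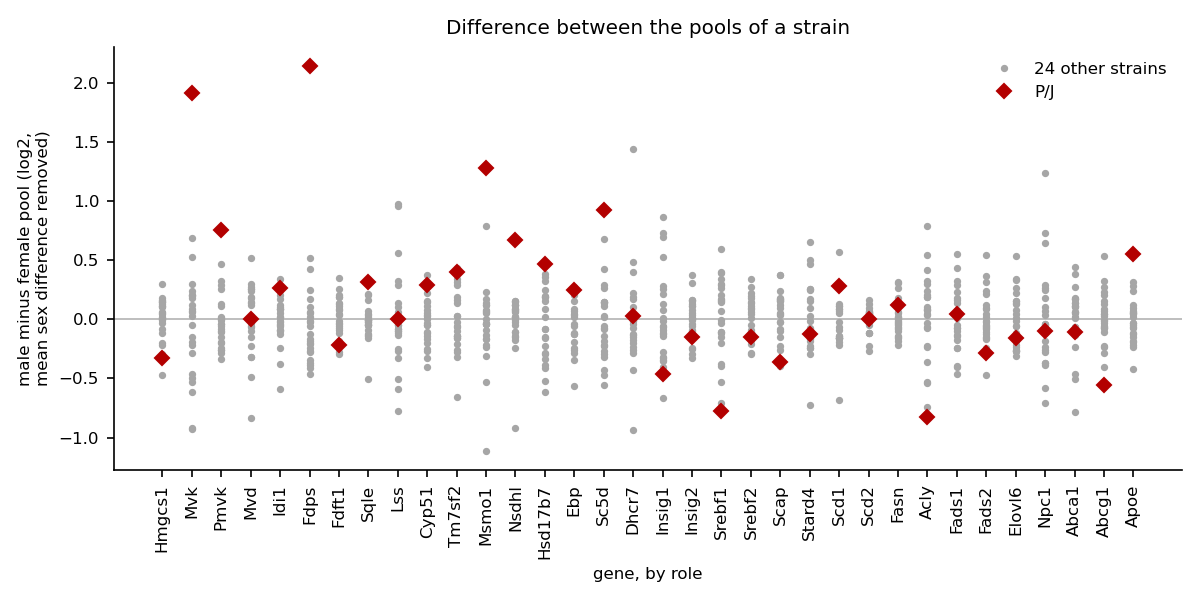
Male minus female pool in log2 units, with the mean sex difference of each gene removed, for the 34 genes in order of role; each grey point is 1 of the 24 other strains and the diamond is P/J. P/J stands far above the other strains for Fdps and Mvk, above them for Pmvk, Msmo1, Nsdhl and Sc5d, and within them for Mvd, Lss and Dhcr7.

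The enzymes of both arms rose and fell together over strains, loosely. Over the 136 pairs of the 17 synthesis genes the median r of strain means was 0.24, with 84.6% of pairs above 0 and 22.1% above 0.5. Over all pairs of the 11204 genes the median was 0.02, with 52.8% above 0 and 2.88% above 0.5. The first principal component took 36.5% of the variance of the 17 genes. These are correlations of 25 strain means that share pools, arrays and ancestry, given as a description. Without P/J and BTBT T+tf/J the median over pairs was 0.34 (n = 23).

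Each synthesis gene was also set against the mean of the other 16. The median r was 0.57 (0.53 in male and 0.43 in female arrays), and 11 of 17 genes were above 0.5. For all genes outside the list, the correlation with the synthesis mean had a median of 0.00 and a 95th percentile of 0.37, and 0.967% were above 0.5. By leading probe sets Nsdhl (0.79), Sqle (0.77) and Tm7sf2 (0.62) followed the others most closely, Nsdhl although it was not called for strain. The second probe sets of Mvd (0.82) and Fdft1 (0.80) gave higher values than Nsdhl, against 0.56 and 0.57 for their leading ones. Without P/J and BTBT T+tf/J, Mvd (0.78) passed Nsdhl (0.77).

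Hmgcs1 (0.14), Pmvk (0.07) and Sc5d (-0.18) departed by their leading probe sets. Pmvk is the gene set apart by KK/HIJ, and its rank correlation with the others was 0.52. The other 4 probe sets of Hmgcs1 gave -0.0038 to 0.45, and the second one of Sc5d gave 0.36, so the departure of both genes depends on the probe set.

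The closest pairs were Mvd with Fdft1 (r = 0.79), Fdps with Msmo1 (0.77), Sqle with Nsdhl (0.74) and Mvd with Fasn (0.74). Fdps with Msmo1 fell to 0.59 without P/J and BTBT T+tf/J, and the other 3 stayed between 0.72 and 0.77. The lowest pairs were Fdft1 with Apoe (-0.62), Msmo1 with Abcg1 (-0.58, from -0.16 in male and -0.78 in female arrays) and Insig1 with Stard4 (-0.56).

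Most regulators and genes of the other roles followed the synthesis genes weakly or not at all. Of the 17 genes outside both arms none had an r above 0.5 with the synthesis mean by its leading probe set, 9 were below 0 and the median was -0.01. The second probe set of Stard4 reached 0.54. Srebf2 had -0.06, Srebf1 -0.16 and Insig1, itself an SREBP target, 0.01. The nearest were Scd1 (0.47), Elovl6 (0.45) and Fasn (0.45), all SREBP targets of fatty acid synthesis, and then Npc1 (0.379) and Insig2 (0.374). By leading probe sets all of these lay above the 95th percentile of genes outside the list (0.370) and above the synthesis genes Lss (0.33) and Dhcr7 (0.30). The second probe set of Scd1 gave 0.43, but the other ones of Elovl6 gave 0.26 and -0.09 and those of Insig2 -0.07 and 0.27. Npc1 had 0.51 in male and 0.07 in female arrays, and Insig2 0.42 and 0.16. Without P/J and BTBT T+tf/J, Fasn reached 0.60. Apoe (-0.35), Fads1 (-0.25) and Abca1 (-0.22) lay at the other end, although the other 2 probe sets of Abca1 gave 0.25 and 0.15. Messenger levels of the SREBP genes are not a measure of their cleaved proteins, which were not analysed here.

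**Figure D5:**
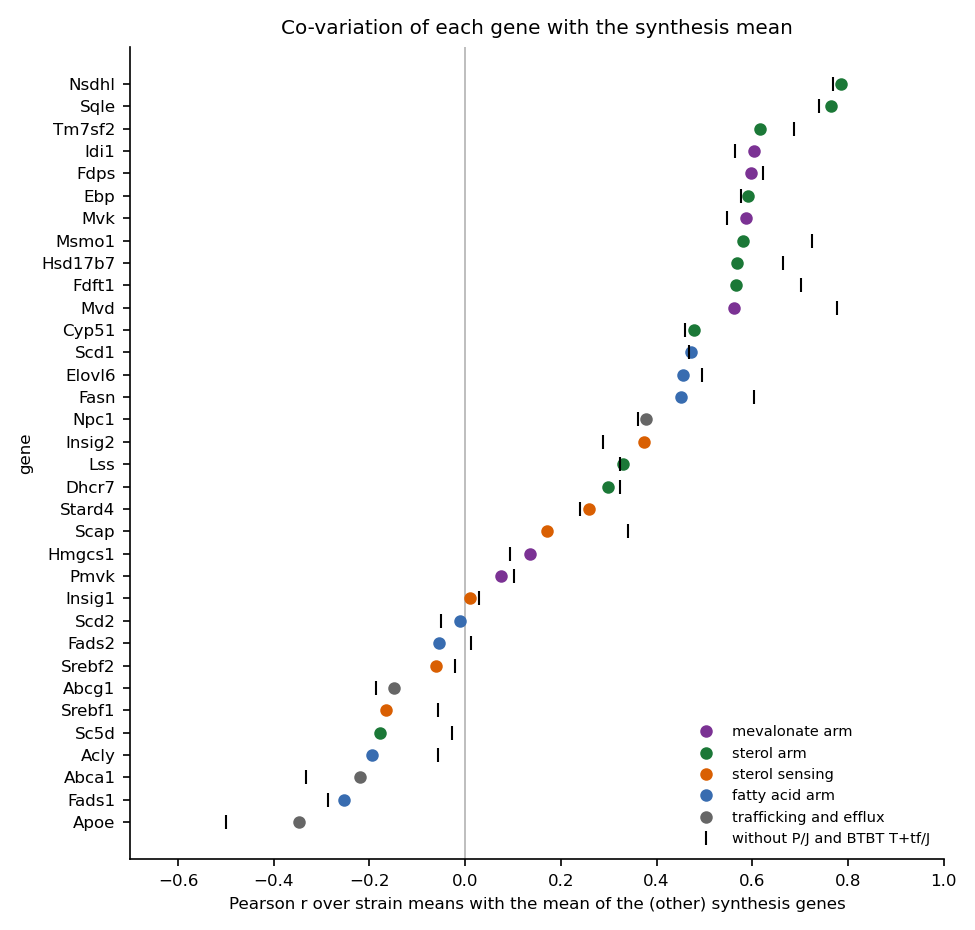
Pearson r over 25 strain means between each of the 34 genes and the mean of the synthesis genes (of the other 16 for a synthesis gene), coloured by role; ticks give r without P/J and BTBT T+tf/J. Most mevalonate and sterol arm genes lie above 0.5, with Hmgcs1, Pmvk and Sc5d as the exceptions below 0.2, and the sensing, fatty acid and efflux genes lie below 0.5.

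Further genes of the pathway were taken from 2 lists. Of 17 other SREBP pathway genes 7 were called for strain (41.2%, against 26.1% of all genes). The widest were Pnpla3, a lipase of lipid droplets, with a range of 2.83 from P/J to NOD/LtJ (limma F test, adjusted p = 1.8e-08), Me1, malic enzyme, with 1.61 (0.00161), and Ggps1, which makes geranylgeranyl pyrophosphate, with 1.43 (0.00544). None of these 3 followed the synthesis mean (r from -0.24 to -0.12). Over the list r was above 0 for 13 of 17 genes, with a median of 0.20, against a median of 0.00 for genes outside the list of 36. Of 16 tested genes of other sterol handling 6 were called (37.5%). The widest were Scarb1, the HDL receptor, with a range of 1.68 (limma F test, adjusted p = 0.0215), Stard3 with 1.39 (0.000447) and Cyp7b1, an oxysterol hydroxylase, with 1.06 (0.00668).

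Over all other genes tested, those whose strain means were most like the synthesis mean were St8sia3 (r = 0.69), Lrrc8d (0.66), Myc (0.65), Bdnf (0.65), Amz2 (0.65), Mrps31 (0.64), Anxa7 (0.63), Rbbp6 (0.63), Prdm11 (0.63) and Mccc1 (0.63). The most opposed were Alkbh5 (-0.76), Map2k3 (-0.68), Nipa2 (-0.63), Slc12a2 (-0.63) and Slc2a1 (-0.62). They are the ends of 11170 correlations. Only St8sia3, Bdnf and Mccc1 at the high end and Alkbh5, Nipa2 and Slc12a2 at the low end were called for strain, against 26.1% of all genes. Myc, at a mean of 4.71, had an r of 0.61 in male and 0.13 in female arrays. Prdm11 had a mean of 4.16, near the filter, and a range of 0.31. None of these 15 genes is on either pathway list.

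Markers of the cells in and around the ganglion were set beside the order. All 12 tested genes of the 16 markers of myelinating Schwann cells had a negative r with the synthesis mean over strain means, with a median of -0.33. In male and female arrays taken apart, 7 of the 12 were negative in both. The mean of that list had an r of -0.53 over strain means, -0.11 in male and -0.52 in female arrays. Of its 12 genes 3 were called for strain (25%, against 26.1% of all genes). Its lowest strain was c57BL/6J (-0.32), second in the synthesis order, and its highest SWR/J (0.24). Male and female means of the Schwann cell list correlated over strains at r = 0.23, and at 0.003 without c57BL/6J and SWR/J. The summed level of these markers ran from 14.79 to 15.36 over strains. The mean of satellite glia markers had an r of -0.32 (-0.12 in male and -0.49 in female arrays). Of its 7 tested genes 6 were called for strain (85.7%, against 26.1% of all genes), and its male and female means correlated at r = 0.68. It was highest in CBA/J (0.22), last in the synthesis order, and lowest in c57BL/6J (-0.29). The mean of neuron markers had an r of 0.19, with opposite signs in male (-0.18) and female arrays (0.25). The part of cell composition in the order was not tested.

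Markers of hepatocytes, adipocytes, skeletal muscle and macrophages were set beside the order as well. Whether their signals come from tissue outside the ganglion was not tested. All 6 tested hepatocyte markers were called for strain, against 26.1% of all genes. Their mean was highest in DBA/2J (3.72), C58/J (2.64), FVB/NJ (1.96) and C3H/HeJ (1.51). DBA/2J and C58/J are among the top 3 of the synthesis order, and FVB/NJ and C3H/HeJ among the lowest 6. The r of the hepatocyte list with the synthesis mean was 0.25 (0.16 in male and 0.30 in female arrays). Without the 4 strains, left out after seeing the data, the male to female r was 0.50 and 16 genes were called for strain. Adipocyte markers had an r of 0.30 (0.36 in male and 0.09 in female arrays), skeletal muscle markers 0.17 (0.27 and -0.09) and macrophage markers 0.13 (0.41 and 0.06). Called for strain were 1 of 7 adipocyte, 0 of 8 skeletal muscle and 5 of 9 macrophage markers, against 26.1% of all genes.

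Males and females differed in 18 of the 34 genes by limma with strain as a block, 11 higher in males (background 24.7% of all genes) and 7 higher in females (34.3%). Since the sexes appear to have been normalized separately, a sex difference cannot be told apart from that step, and the median over all genes was -0.04. The largest belonged to regulators and to the sterol arm. Srebf2 was 0.59 higher in males (SE 0.04, adjusted p = 3.21e-13), in 25 of 25 strains, and Tm7sf2 0.43 higher (SE 0.05, 1.38e-07), in 24. Mvk (0.38), Srebf1 (0.33), Dhcr7 (0.26), Scap (0.21), Lss (0.21), Sqle (0.21), Insig1 (0.18) and Pmvk (0.15) were higher in males too. Fasn was 0.24 higher in males, again in all 25 strains.

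Higher in females were Fdft1, Elovl6, Fads2, Abca1, Abcg1, Scd2 and Insig2, by 0.24 for Fdft1 down to 0.14 for Insig2 in size. Fdft1 was higher in males in only 2 strains and Scd2 in 1. The sign did not hold between probe sets: the second probe set of Fdft1 was 0.31 higher in males, and that of Fads2 0.045 higher in males. Insig1 lost its sex call in 22 of the 64 alternative fits. The strain calls rest on the sex term, since without it 9 of the 34 genes and 12.7% of all genes were called.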

How the data were processed

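Total RNA of dorsal root ganglia was pooled from 3 mice per sex and strain, labelled with biotin and measured on 50 arrays of 45101 probe sets, per the labels' protocols. The deposited values are linear intensities that the authors made with GCRMA. The submitters' processing notes name R 2.6.2 for this step, and further settings are not given in the sources used here. Here, 1 was added to the deposited intensity and the log2 taken. Of 45037 probe sets that are not controls, 34945 had exactly 1 gene symbol. A probe set was tested when it was above 4 in at least 2 arrays (22205), and the one with the highest mean stood for its gene (11204 of 18193 genes).

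Strain was tested with limma 3.58.1 (R 4.3.3) by the moderated F test with sex as an additive term, sex with strain as a block, and each strain against the average of the remaining 24, where a minimum of 1 log2 unit was required. Benjamini-Hochberg adjustment ran over every tested probe set (and every strain, in the last case), and calls were made at an adjusted p under 0.05. The fits were tested on simulated data. Every gene of the list is named. Those described in depth are the 3 called genes of each role with the widest range, the 3 synthesis genes that follow the others most and least, and the genes called for a single strain. From the further lists the 3 called genes of widest range are named, and over all other genes the 10 with the highest and the 5 with the lowest correlation with the synthesis mean. Promoters were matched by symbol to a RefSeq table. The genes, lists and rules were chosen with earlier results of these data known.

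Alternatives were other pseudocounts, scalings, filters and probe sets, no sex term, moderation with trend, and each array or doubtful strains left out.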

Additional observations from a re-analysis of the deposited data

How the results depend on the processing

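With 2 pools per strain, only differences well above the spread between pools could be called. The count of single-strain calls moved most: from 2 it went to 1 with a pseudocount of 16, with array median centring, without P/J and without the 4 strains of highest hepatocyte markers (the last of these chosen after seeing the data, as was leaving out P/J), to 10 with the second probe set of the 20 genes that have one, to 5 with the mean over probe sets, and to 35 with no minimum difference; it ran from 1 to 5 with single arrays left out. Fads1 in C57BR/cdJ sits at the minimum and is the call lost with a pseudocount of 16 and with array median centring. Strain calls were 18, 9 without the sex term, 16 to 21 in the other alternatives and 16 to 26 with single arrays left out, highest without the male P/J array. The share of all genes is given only for the main fit (26.1%), without the sex term (12.7%) and without the male P/J array (36.5%). The male to female r of the synthesis mean (0.61) was 0.87 without the 2 arrays of highest Gapdh 3' minus 5' signal, 0.77 with second probe sets, 0.73 with the mean over probe sets, 0.86 without P/J, 0.50 without the 4 strains of highest hepatocyte markers, and 0.56 to 0.86 with single arrays left out. The range of the synthesis mean (0.48) was 0.60 in male arrays alone, and 1.63 in SD units when each gene was scaled to z-scores. The median r of a synthesis gene with the others (0.57) was 0.43 in female arrays alone. The male minus female difference of Fdft1 (-0.24) turned to 0.31 with the second probe set and 0.035 with the mean over probe sets. That of Fads2 (-0.18) turned to 0.045 with the second probe set, which was not called for sex. The cause was not tested. The ends of the strain order changed with the sex: P/J was first and BTBT T+tf/J last in male arrays alone, DBA/2J first and P/J last in female arrays alone, and P/J first without the 2 arrays of highest Gapdh 3' minus 5' signal.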
